A study of Mus musculus with 9 samples.

Results

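The 33 genes described here are mouse genes of the unfolded protein response of the endoplasmic reticulum (ER) and of the integrated stress response. They were chosen by gene name for what they encode, with earlier results of these data known. They comprise 4 sensors and regulators (Ern1, Eif2ak3, Atf6 and Xbp1), 9 chaperones and cofactors, and 6 lectins and protein disulfide isomerases. The others are 7 genes of ER-associated degradation, the translocon subunit Sec61b, and 6 genes of the arm run by the transcription factor Atf4. All 33 were found among the 16537 genes of the deposited table, which lists 21388 transcripts. The study sorted bone marrow cells of the FVB/NJ mouse strain and sequenced their RNA in 9 libraries, 3 for each group. Leukemic progenitors (LP) carried the PML-RAR genotype and were taken in what the labels call the early phase or the median phase. Normal hematopoietic progenitor cells (HPC) came from wild-type animals at postnatal day 42. PML-RAR is the fusion of a nuclear body protein and retinoic acid receptor alpha that marks acute promyelocytic leukemia. The sources used here give no age for the LP, no promoter that drives the fusion and no sorting markers. Leukemia, age and the mix of sorted cells therefore cannot be told apart in any comparison with HPC. No label states whether libraries within a group are from different animals, and the spread behind each p-value may thus be technical.

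Proteins that are secreted, stored in granules or placed in membranes are folded in the ER. When unfolded proteins build up there, IRE1 (encoded by Ern1), PERK (encoded by Eif2ak3) and ATF6 start the unfolded protein response. IRE1 removes a short intron from the Xbp1 mRNA in the cytoplasm, ATF6 is cut and moves to the nucleus, and PERK phosphorylates the translation factor eIF2alpha. Spliced XBP1 and ATF6 switch on genes for chaperones and degradation, while phosphorylated eIF2alpha slows translation in general and favours translation of ATF4, whose targets form the integrated stress response. In the myeloid lineage, promyelocytes and their precursors make large amounts of granule proteins such as myeloperoxidase in the ER.

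The sequences shown here, chosen because they link the genes to their regulators, are the switch in Xbp1 and the promoter elements that the chaperone genes share. The Xbp1 stretch that IRE1 removes lies in exon 4 at chr11:5524282-5524307 on the + strand of GRCm38, the build also called mm10. It spans 26 bases, in capitals below within the coding exon, read from the GENCODE M21 transcript. With it the reading frame has 267 codons, and without it 371 codons.
Xbp1, chr11:5524265-5524324, + strand: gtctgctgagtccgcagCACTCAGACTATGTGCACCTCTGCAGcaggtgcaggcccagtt

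The ER stress element (ERSE), which ATF6 binds together with NF-Y, reads CCAAT, 9 further bases and CCACG. A shorter form, ERSE-II, reads ATTGG, 1 base and CCACG. The RefSeq promoter table for GRCm38.p6 covers 250 bases before to 50 bases after each start site, holds 32851 promoters, and has a promoter for 29 of the 33 genes. These 29 genes have 31 promoters there. Exact ERSE matches on either strand occurred in 9 of the 31, each of a different gene, whereas 0.119% of all promoters in the table had one. No test was run on this difference. They are shown with 10 bases on each side, on the strand that reads CCAAT first, with CCAAT and CCACG in capitals.
Calr, chr8:84847065-84847103, + strand: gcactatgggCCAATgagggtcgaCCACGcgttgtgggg
Canx, chr11:50325790-50325828, - strand: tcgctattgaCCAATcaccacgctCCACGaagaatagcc
Creld2, chr15:88819510-88819548, - strand: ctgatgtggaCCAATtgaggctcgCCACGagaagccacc
Derl3, chr10:75893232-75893270, - strand: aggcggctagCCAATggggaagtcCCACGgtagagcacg
Dnajc3, chr14:118937817-118937855, + strand: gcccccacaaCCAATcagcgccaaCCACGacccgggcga
Hsp90b1, chr10:86705628-86705666, - strand: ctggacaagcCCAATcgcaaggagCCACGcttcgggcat
Hsp90b1, chr10:86705523-86705561, + strand: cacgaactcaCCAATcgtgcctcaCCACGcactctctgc
Hspa5, chr2:34772015-34772053, + strand: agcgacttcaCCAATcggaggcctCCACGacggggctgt
Pdia6, chr12:17266481-17266519, + strand: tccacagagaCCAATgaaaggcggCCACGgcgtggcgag
Syvn1, chr19:6046522-6046560, + strand: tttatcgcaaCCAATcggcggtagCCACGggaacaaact

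Hsp90b1, which encodes GRP94, had a pair of matches on opposite strands. The match lay between 26 and 212 bases before the start site in all 9 genes. Exact ERSE-II matches occurred in 2 of the 31 promoters and in 0.0365% of all promoters, and are shown with 9 bases on each side.
Dnajb11, chr16:22857843-22857871, + strand: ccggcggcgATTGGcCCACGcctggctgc
Herpud1, chr8:94386368-94386396, + strand: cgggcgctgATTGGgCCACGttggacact

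The 250 bases before the start site are given for Hspa5, the chaperone BiP that serves as the classic reporter of the response, and for Derl3, whose change was by far the largest of the 33. Capitals mark the ERSE, which in Derl3 lies on the opposite strand to the gene.
Hspa5, chr2:34771840-34772089, + strand: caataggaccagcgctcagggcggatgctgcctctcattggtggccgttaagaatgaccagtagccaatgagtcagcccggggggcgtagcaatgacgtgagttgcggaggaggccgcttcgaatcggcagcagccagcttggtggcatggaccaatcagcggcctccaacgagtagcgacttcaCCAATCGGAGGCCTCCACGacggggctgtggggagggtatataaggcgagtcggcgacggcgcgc
Derl3, chr10:75893148-75893397, + strand: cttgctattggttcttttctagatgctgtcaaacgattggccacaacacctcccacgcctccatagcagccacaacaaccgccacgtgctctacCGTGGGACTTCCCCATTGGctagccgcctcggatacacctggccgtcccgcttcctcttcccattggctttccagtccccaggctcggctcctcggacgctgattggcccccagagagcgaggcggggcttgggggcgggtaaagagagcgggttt

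The XBP1 site UPRE was searched as TGACGTGG, which was in 0.676% of all promoters. The amino acid response element that ATF4 dimers can bind was searched as TGATGNAAT, which was in 0.965%. Neither exact string was in a promoter window of the 29 genes on either strand. Stretches that depart from TGATGNAAT only in the last base were not counted, and the windows of Chac1 and Herpud1 hold such a stretch. The absence thus holds for the exact strings alone. All promoter windows searched are short, and the letters of a motif show neither binding nor its absence.

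Most of the 33 mRNAs stood higher in the leukemic progenitors. In early LP against HPC, 31 of the 33 genes rose, 1 fell and 1 was not called. Calls rest on edgeR's quasi-likelihood test with a Benjamini-Hochberg adjustment over all 12837 genes tested, at a threshold of 0.05. Over all genes tested, 35.3% were called higher and 37.9% lower in that comparison. In median LP against HPC, 31 of the 33 rose and 2 fell, against 36.0% called higher and 37.7% lower over all genes. Ern1 fell in both comparisons. Ppp1r15a was called lower in median LP and not called in early LP, and its difference between the phases did not pass the threshold (adjusted p = 0.0919 in edgeR). The adjusted p of the genes that rose was between 1.57e-11 and 0.0345 in early LP and between 1.75e-11 and 0.00959 in median LP.

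The rises were often more than 2-fold. At least 2-fold higher calls numbered 21 of the 33 genes in early LP and 20 in median LP, where 15.6% and 16.2% of all genes tested reached that size. The median log2 fold change over the 33 genes was 1.18 in early LP and 1.16 in median LP, against -0.04 over all genes in both comparisons. All 3 early LP libraries lay above all 3 HPC libraries for 31 of the 33 genes (36.3% of all genes tested), and all 3 median LP libraries did so for 31 (36.8% of all genes). Both comparisons use the same HPC libraries, so their agreement is not independent.

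As a share of all mRNA counts the 33 genes together took 2.08, 2.17 and 2.17% in the 3 early LP libraries and 2.17, 2.08 and 2.15% in the median LP libraries, against 1.05, 1.06 and 0.892% in the HPC libraries. Every LP library was thus above every HPC library. In bulk RNA of this kind, fewer cells of a type and less RNA per cell cannot be told apart.

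**Figure D1:**
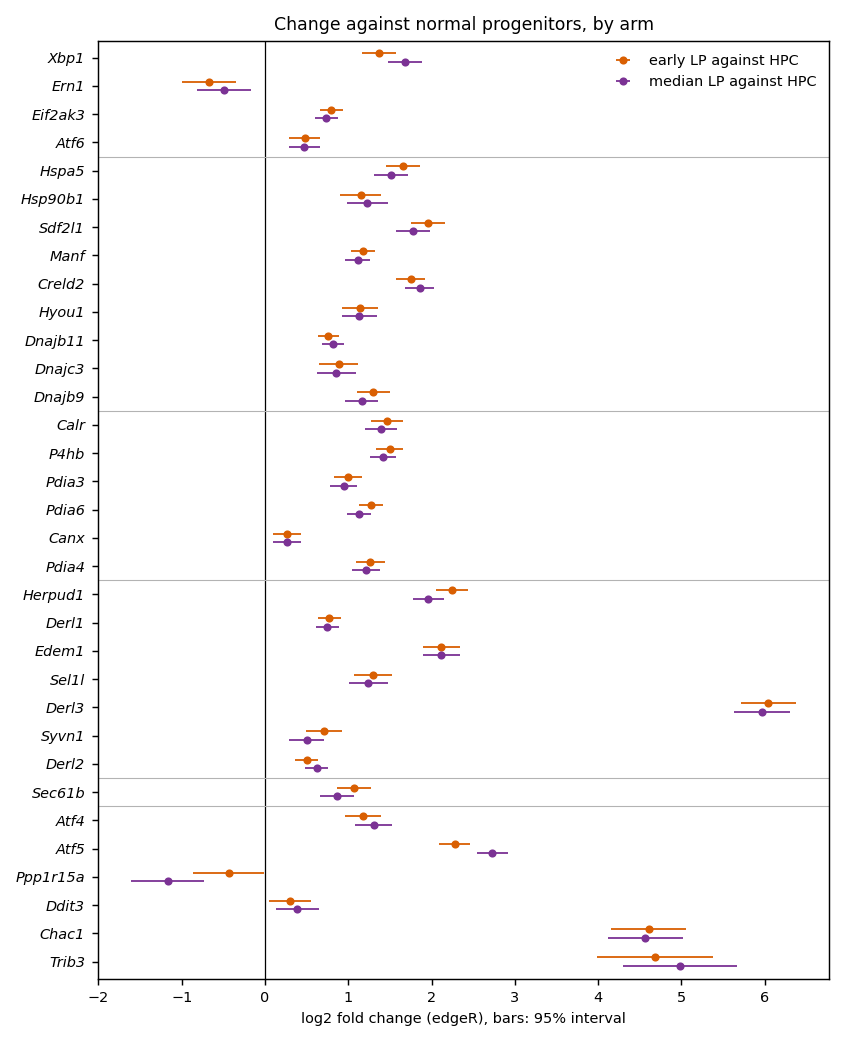
Log2 fold change of each of the 33 genes in early LP and in median LP against HPC (x axis) with its 95% interval, with genes grouped by arm from sensors at the top to the Atf4 arm at the bottom. Most points lie between 0 and 2.73, Derl3, Chac1 and Trib3 lie furthest to the right, and Ern1 and Ppp1r15a lie below 0.

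Levels are given per library as TMM-scaled counts per 1 M counts (CPM, with M for mega), which compare a gene between libraries. FPKM (fragments per kilobase and 1 M mapped fragments) were summed over the transcripts of a gene and are used where genes are compared with each other.

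Among the sensors, the mRNAs for 2 of the 3 transmembrane sensors rose and that for IRE1 fell, while Xbp1, the target of IRE1, rose. Ern1 (chr11:106397620-106487796) had 68.6, 51.4 and 48.4 CPM in early LP and 51.3, 71.2 and 69.0 CPM in median LP, against 93.4, 97.0 and 78.9 CPM in HPC. All LP libraries were below all HPC libraries, and the log2 fold change was -0.68 (SE 0.15) in early LP and -0.49 (SE 0.15) in median LP (adjusted p = 0.00136 and 0.00977 in edgeR). Eif2ak3, the PERK kinase gene, had 68.9, 69.7 and 65.8 CPM in early LP and 63.5, 65.2 and 67.5 CPM in median LP, against 39.3, 41.3 and 37.2 CPM in HPC. Its libraries clustered tightly within each group, with no overlap between LP and HPC, and it rose by 0.80 (SE 0.06) in early LP and 0.74 (SE 0.06) in median LP on the log2 scale. Atf6 had 97.0, 89.0 and 89.1 CPM in early LP and 87.0, 93.4 and 94.3 CPM in median LP, against 68.5, 72.0 and 57.4 CPM in HPC, again with every LP library above every HPC library. The Atf6 change was among the smaller ones, at 0.48 (SE 0.08) in early LP and 0.47 (SE 0.08) in median LP. The table gives the Ern1 row a pair of gene identifiers for 1 transcript, and its level is taken as listed.

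Xbp1 (chr11:5520641-5525993) encodes the transcription factor made from the spliced mRNA. It had 324, 327 and 321 CPM in early LP and 454, 385 and 366 CPM in median LP, against 135, 128 and 114 CPM in HPC. All LP libraries exceeded all HPC libraries by a wide margin, and the log2 fold change was 1.37 (SE 0.09) in early LP and 1.68 (SE 0.09) in median LP. The table lists a longer Xbp1 transcript of 2247 bases and a shorter one of 2221 bases, which differ in length by the 26 bases of the stretch printed above. The shorter, spliced form took 53.7, 50.9 and 53.5% of the estimated Xbp1 counts in early LP and 24.7, 30.3 and 45.8% in median LP, against 39.3, 38.5 and 50.1% in HPC. Early LP libraries were tightly grouped and all above the HPC libraries, while the median LP libraries were spread widely across and below the HPC range. The mean share was 10.1 percentage points higher in early LP than in HPC (exact two-sided permutation test, p = 0.1, the smallest that 3 against 3 libraries allow) and 9.03 points lower in median LP than in HPC (difference -9.03, exact permutation p = 0.3). Between the phases, the median LP share was lower than the early LP share by 19.1 points (difference -19.1, exact permutation p = 0.1). Only reads that cross those 26 bases tell the forms apart, so the shares rest on few reads and on how the authors' software divided the rest.

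Put on the CPM scale, the shorter form stood at 171 ± 4.05 CPM in early LP and 132 ± 31.0 CPM in median LP, against 53.1 ± 3.99 CPM in HPC (SD, n = 3 each). The longer form stood at 153 ± 6.13 CPM in early LP and 269.6 ± 71.9 CPM in median LP, against 72.4 ± 13.6 CPM in HPC. Both forms were higher in every LP library than in every HPC library. Of the 2 forms, the longer had the higher mean in median LP and the shorter the higher mean in early LP. Total Xbp1 did not pass the threshold between the phases, at a log2 difference of 0.31 (SE 0.09) and an adjusted p of 0.106 in edgeR.

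**Figure D2:**
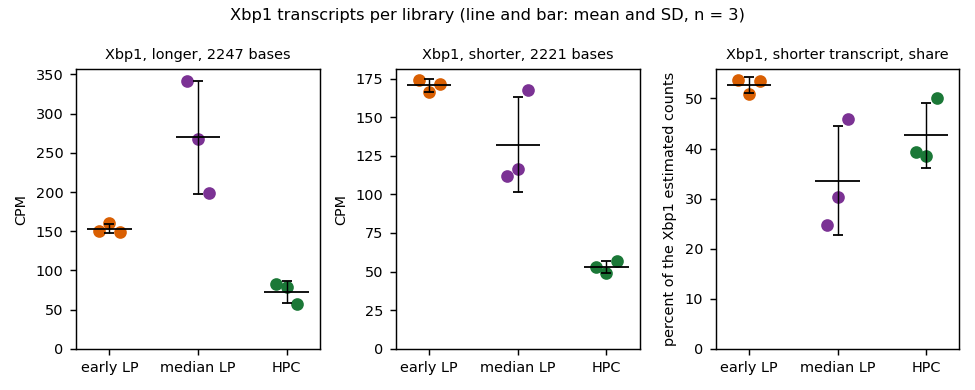
Estimated level of the longer and the shorter Xbp1 transcript in CPM and the share of the shorter one in percent, for early LP, median LP and HPC; points are libraries, and lines with bars are means and SD of n = 3. The share sits at 50.9 to 53.7% in early LP and runs between 24.7 and 45.8% in median LP and between 38.5 and 50.1% in HPC.

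All 9 chaperone and cofactor genes rose in both phases, by a median log2 of 1.18 in early LP and 1.16 in median LP. Hspa5 (chr2:34772090-34776529) encodes BiP, the main Hsp70 chaperone of the ER and the protein that holds the sensors inactive. It had 3457, 3515 and 3753 CPM in early LP and 3231, 3105 and 3338 CPM in median LP, against 1201, 1216 and 980.4 CPM in HPC. The lowest LP library was far above the highest HPC library, and the log2 fold change was 1.66 (SE 0.09) in early LP and 1.51 (SE 0.09) in median LP. Hsp90b1, the ER member of the Hsp90 family, had 2275, 2141 and 2295 CPM in early LP and 2445, 2284 and 2371 CPM in median LP, against 1099, 1123 and 808 CPM in HPC. HPC 3 was the lowest library and the LP libraries did not overlap HPC, with a rise of 1.15 (SE 0.11) in early LP and 1.23 (SE 0.11) in median LP. Hyou1 is a large Hsp70-like protein that acts as a nucleotide exchange factor for BiP. It had 596, 640.5 and 621 CPM in early LP and 629, 594 and 620.5 CPM in median LP, against 301, 308 and 232 CPM in HPC. Its log2 rise was 1.14 (SE 0.10) in early LP and 1.13 (SE 0.10) in median LP.

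The largest rises of the chaperone group were in small soluble cofactors. Sdf2l1, which works with BiP and its J-domain partners, had 253, 311 and 306 CPM in early LP and 267, 244 and 256 CPM in median LP, against 78.3, 77.8 and 67.6 CPM in HPC. Creld2, a secreted ER stress-inducible protein with EGF-like repeats, had 192, 208 and 214 CPM in early LP and 221, 208 and 231 CPM in median LP, against 62.2, 64.9 and 55.4 CPM in HPC. Neither gene overlapped between LP and HPC, and the log2 fold changes were 1.96 (SE 0.09) in early LP and 1.78 (SE 0.09) in median LP for Sdf2l1 and 1.75 (SE 0.08) in early LP and 1.85 (SE 0.08) in median LP for Creld2. Manf, an ER protein that is also secreted as a trophic factor, rose by 1.18 (SE 0.07) in early LP and 1.11 (SE 0.07) in median LP on the log2 scale. It had 337, 347 and 332 CPM in early LP and 308, 321 and 343 CPM in median LP, against 144, 158 and 148 CPM in HPC. Dnajb9 (ERdj4), a J-domain partner of BiP that restrains IRE1, had 86.9, 72.6 and 82.3 CPM in early LP and 70.8, 67.1 and 81.1 CPM in median LP, against 33.1, 34.7 and 30.3 CPM in HPC. LP and HPC libraries did not overlap for Manf or Dnajb9, and Dnajb9 rose by 1.30 (SE 0.09) in early LP and 1.16 (SE 0.09) in median LP. The other J-domain partners rose less. Dnajb11 (ERdj3), which has an ERSE-II just after the start site, ranged over 219 to 225 CPM in early LP and 228 to 234 CPM in median LP, against 128 to 135 CPM in HPC. Dnajc3 (p58IPK), an inhibitor of PERK that also acts as a chaperone, ranged over 304 to 319.6 CPM in early LP and 296 to 321 CPM in median LP, against 136 to 189.6 CPM in HPC. Their log2 fold changes were 0.76 (SE 0.06) in early LP and 0.82 (SE 0.06) in median LP and, for Dnajc3, 0.88 (SE 0.11) in early LP and 0.86 (SE 0.11) in median LP.

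All 6 genes of the lectin and disulfide isomerase group also rose, but its partner lectins differed in size. Calr encodes calreticulin, the soluble lectin that retains newly made glycoproteins for folding, and had the highest FPKM of the 33 genes in every group. It had 5029, 5182 and 5674 CPM in early LP and 5258, 4832 and 5055 CPM in median LP, against 2026, 1945 and 1776 CPM in HPC. LP libraries lay well above HPC libraries, and Calr rose by 1.47 (SE 0.09) in early LP and 1.40 (SE 0.09) in median LP on the log2 scale. Canx encodes calnexin, the membrane-bound counterpart of calreticulin, and ranged over 922 to 981 CPM in early LP and 905 to 1005 CPM in median LP, against 707 to 840.4 CPM in HPC. Its rise was the smallest of the 31 at 0.26 (SE 0.08) in early LP and 0.26 (SE 0.08) in median LP, with 95% intervals of 0.09 to 0.44 in both phases, and the early call was lost without early LP 3 (adjusted p = 0.0600 in edgeR). Calr and Canx both carry an exact ERSE, so 1 exact match stood before genes with rises of very different size.

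The disulfide isomerases, which form and reshuffle disulfide bonds in new proteins, had between 1.92 and 2.82 times their HPC level. P4hb, which encodes the founding member PDI, had 2416, 2598 and 2558 CPM in early LP and 2517, 2324 and 2328 CPM in median LP, against 926, 885 and 875 CPM in HPC. Pdia6 had 838, 886 and 891 CPM in early LP and 804, 774 and 798 CPM in median LP, against 369, 376 and 339 CPM in HPC. Pdia4 had 417, 439.9 and 437 CPM in early LP and 413, 413 and 426 CPM in median LP, against 186, 194 and 159 CPM in HPC. LP and HPC libraries did not overlap for any of the 3 genes. Their log2 fold changes were 1.50 (SE 0.07) in early LP and 1.42 (SE 0.07) in median LP for P4hb, 1.27 (SE 0.07) in early LP and 1.13 (SE 0.07) in median LP for Pdia6 and 1.26 (SE 0.08) in early LP and 1.22 (SE 0.08) in median LP for Pdia4. Pdia3 (ERp57), which works with calreticulin and calnexin on glycoproteins, ranged over 1635 to 1745 CPM in early LP and 1595 to 1644 CPM in median LP, against 766 to 886 CPM in HPC. It rose by 1.00 (SE 0.07) in early LP and 0.94 (SE 0.07) in median LP.

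All 7 genes of ER-associated degradation, which sends misfolded proteins to the cytosol for destruction, rose in both phases, and the sizes ran from modest to extreme. Derl3 (chr10:75893398-75895941), a derlin that takes part in moving misfolded glycoproteins out of the ER, had 49.6, 54.8 and 53.1 CPM in early LP and 43.5, 48.7 and 57.0 CPM in median LP, against 0.839, 0.628 and 0.897 CPM in HPC. All 6 LP libraries lay far above the 3 HPC libraries, in which Derl3 was close to 0. The log2 fold change was 6.04 (SE 0.15) in early LP and 5.97 (SE 0.15) in median LP, or 66.0-fold and 62.5-fold, the largest of the 33 genes in both comparisons. Limma on log2(FPKM + 1), which understates the change of low genes, gave 4.77 in early LP and 4.67 in median LP. The HPC values rest on 21, 16 and 26 recovered fragments, against 968, 1512 and 1033 in early LP and 1127, 1119 and 1417 in median LP.

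The other derlins, which are used more widely across tissues, moved far less. Derl1 ranged over 236 to 252 CPM in early LP and 230.3 to 252 CPM in median LP, against 139.6 to 147 CPM in HPC. Derl2 ranged over 55.7 to 59.0 CPM in early LP and 60.0 to 63.3 CPM in median LP, against 38.4 to 43.2 CPM in HPC. Their log2 fold changes were 0.77 (SE 0.06) in early LP and 0.74 (SE 0.06) in median LP for Derl1 and 0.50 (SE 0.06) in early LP and 0.62 (SE 0.06) in median LP for Derl2. On the FPKM scale, which allows the 3 paralogs to be compared, Derl3 stood at 45.6 ± 3.32 FPKM in early LP and 42.8 ± 4.72 FPKM in median LP, against 0.711 ± 0.135 FPKM in HPC (SD, n = 3 each). Derl1 stood at 75.4 ± 3.46 FPKM in early LP and 72.0 ± 4.90 FPKM in median LP, against 46.8 ± 3.01 FPKM in HPC. Derl2 stood at 14.8 ± 0.265 FPKM in early LP and 15.4 ± 0.546 FPKM in median LP, against 11.1 ± 0.416 FPKM in HPC. Derl3 was thus the least abundant derlin in HPC, and in LP it lay between Derl1 and Derl2.

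Herpud1 encodes a membrane protein that organises the degradation complex, and carries the ERSE-II shown above. It had 338, 369 and 368 CPM in early LP and 274, 274 and 333 CPM in median LP, against 72.8, 76.5 and 76.6 CPM in HPC. The log2 fold change was 2.25 (SE 0.09) in early LP and 1.96 (SE 0.09) in median LP. Edem1, a mannosidase-like protein that hands misfolded glycoproteins to degradation, had 476, 496 and 475 CPM in early LP and 484, 477 and 488 CPM in median LP, against 125, 117 and 91.8 CPM in HPC. LP libraries were more than 3 times any HPC library for both genes, and Edem1 rose by 2.12 (SE 0.10) in early LP and 2.12 (SE 0.10) in median LP. Sel1l, the adaptor of the Hrd1 ubiquitin ligase complex, had 315, 307 and 306 CPM in early LP and 283, 299.7 and 311 CPM in median LP, against 136, 139.9 and 102 CPM in HPC. Its libraries did not overlap between LP and HPC, and it rose by 1.30 (SE 0.10) in early LP and 1.24 (SE 0.10) in median LP. Syvn1, which encodes Hrd1 itself, changed less, with 103 to 118 CPM in early LP and 82.8 to 109.5 CPM in median LP, against 62.9 to 71.1 CPM in HPC. Its log2 fold change was 0.71 (SE 0.10) in early LP and 0.50 (SE 0.10) in median LP. The table places Syvn1 in 1 locus with Mrpl49, which fell by 0.60 in early LP and by 0.66 in median LP on the log2 scale, so reads of the overlap are uncertain.

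Sec61b, the beta subunit of the channel through which new proteins enter the ER, had 189, 214 and 224 CPM in early LP and 184, 176 and 186 CPM in median LP, against 94.96, 91.2 and 113 CPM in HPC. It rose by 1.07 (SE 0.09) in early LP and 0.87 (SE 0.09) in median LP, again without overlap between LP and HPC.

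**Figure D3:**
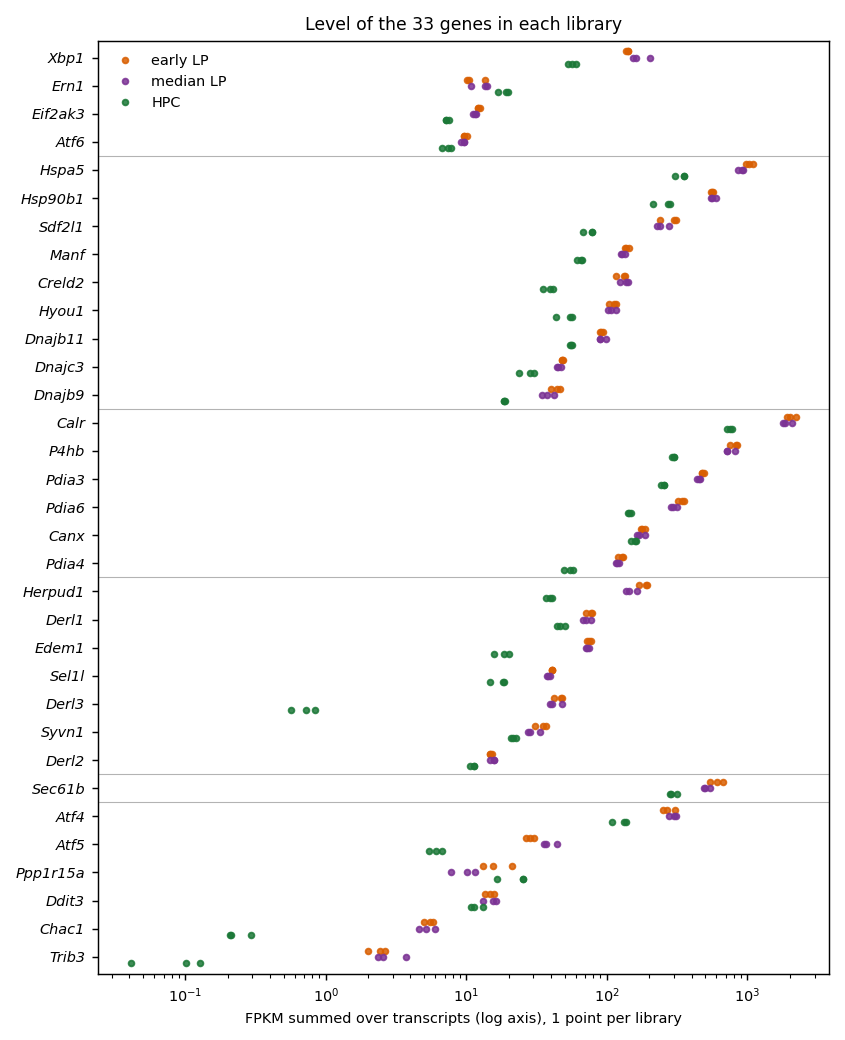
FPKM of each of the 33 genes in every library on a log axis, 1 point per library, with early LP above median LP above HPC within a gene; genes run down the page by arm. Calr is highest in every group. LP points lie to the right of HPC points for most genes but not for Ern1 or Ppp1r15a, and Ddit3 in median LP reaches the HPC range. The gap is widest for Derl3, Chac1 and Trib3.

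The Atf4 arm split, with very large rises in some targets and a fall in another. Translation of Atf4 is raised by phosphorylated eIF2alpha, so its mRNA level is only part of its control. The gene had 477, 431 and 529 CPM in early LP and 510.3, 499 and 559 CPM in median LP, against 229.5, 185 and 220.4 CPM in HPC. Its LP libraries lay above the HPC libraries without overlap, and the log2 fold change was 1.18 (SE 0.10) in early LP and 1.30 (SE 0.10) in median LP. Trib3 (chr2:152337425-152344060), a pseudokinase that restrains ATF4 and CHOP, had 5.01, 3.93 and 5.12 CPM in early LP and 7.12, 5.27 and 4.88 CPM in median LP, against 0.210, 0.0838 and 0.234 CPM in HPC. Chac1 (chr2:119351242-119354327), which degrades glutathione, had 7.97, 8.95 and 8.33 CPM in early LP and 7.66, 7.34 and 9.63 CPM in median LP, against 0.294, 0.419 and 0.312 CPM in HPC. All LP libraries lay far above the HPC libraries for both genes. Trib3 changed by a log2 of 4.68 (SE 0.32) in early LP and 4.98 (SE 0.31) in median LP and Chac1 by 4.61 (SE 0.21) in early LP and 4.57 (SE 0.21) in median LP. On the log2(FPKM + 1) scale, limma gave Trib3 a change of 1.62 in early LP and 1.82 in median LP. It gave Chac1 one of 2.37 in early LP and 2.32 in median LP. Their HPC levels rest on 5, 2 and 7 recovered fragments for Trib3 and 8, 11 and 9 for Chac1. Both remained rare mRNAs in LP, with a mean of 2.35 ± 0.316 FPKM for Trib3 and 5.42 ± 0.383 FPKM for Chac1 in early LP (SD, n = 3 each).

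Atf5 (chr7:44812256-44849079) encodes a transcription factor that is translated under eIF2alpha phosphorylation much like Atf4. It had 46.4, 48.0 and 48.9 CPM in early LP and 69.5, 64.5 and 62.0 CPM in median LP, against 9.86, 8.71 and 10.9 CPM in HPC. The 3 groups did not overlap, with median LP highest and HPC lowest. Its log2 fold change was 2.28 (SE 0.09) in early LP and 2.73 (SE 0.09) in median LP. The deposited end of Atf5 lies beyond its RefSeq end at 44816658, and its entry overlaps Nup62, Il4i1, Nup62-il4i1 and Tbc1d17. Of these neighbours, Nup62 had 154 ± 9.44 CPM in early LP and 147 ± 1.43 CPM in median LP, against 169 ± 3.99 CPM in HPC. Tbc1d17 had 44.8 ± 3.25 CPM in early LP and 40.9 ± 1.82 CPM in median LP, against 29.7 ± 3.64 CPM in HPC (SD, n = 3 each). Most of the Atf5 estimated counts sat on a transcript that RefSeq lists as non-coding, at 47.2 ± 1.45 CPM in early LP and 64.5 ± 3.81 CPM in median LP, against 8.63 ± 1.14 CPM in HPC. The coding transcript stood at 0.524 ± 0.162 CPM in early LP and 0.870 ± 0.302 CPM in median LP, against 1.20 ± 0.810 CPM in HPC. The division between the forms is the authors' estimate.

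The remaining Atf4-arm genes Ddit3 and Ppp1r15a did not share these large rises. Ddit3, which encodes the pro-apoptotic factor CHOP, ranged over 12.7 to 15.4 CPM in early LP and 13.0 to 15.6 CPM in median LP, against 10.4 to 12.4 CPM in HPC. In CPM its LP libraries lay just above its HPC libraries, while in FPKM median LP 2 and HPC 3 were both at 13.2. The Ddit3 rise was small, at 0.30 (SE 0.12) in early LP and 0.39 (SE 0.12) in median LP (adjusted p = 0.0345 and 0.00959 in edgeR). The early call was lost without early LP 3, without HPC 1 and without HPC 2 (adjusted p = 0.152, 0.0800 and 0.0833 in edgeR). Ddit3 shares its locus entry with Mars, which fell by 0.36 in early LP and by 0.26 in median LP on the log2 scale. Ppp1r15a (chr7:45522917-45526268) encodes GADD34, the stress-induced subunit that directs a phosphatase to eIF2alpha and so restores translation. It had 49.4, 41.2 and 64.7 CPM in early LP and 30.6, 37.5 and 25.6 CPM in median LP, against 81.4, 51.2 and 77.9 CPM in HPC. Early LP libraries overlapped HPC 2, and all median LP libraries lay below every HPC library. The log2 fold change was -0.44 (SE 0.20) in early LP and -1.17 (SE 0.20) in median LP, which missed the threshold in early LP (adjusted p = 0.0620) and passed it in median LP (adjusted p = 0.000226). The early LP difference passed it without early LP 3 and without HPC 2 (adjusted p = 0.0122 and 0.0102 in edgeR).

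**Figure D4:**
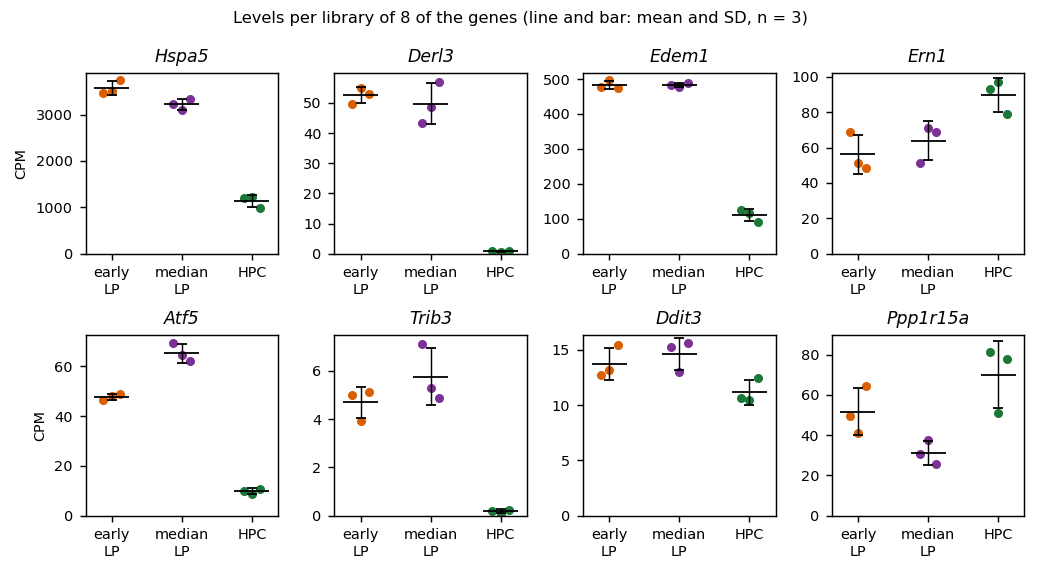
CPM per library of Hspa5, Derl3, Edem1, Ern1, Atf5, Trib3, Ddit3 and Ppp1r15a in early LP, median LP and HPC; points are libraries, and lines with bars are means and SD of n = 3. Derl3 and Trib3 are near 0 in HPC, Ern1 and Ppp1r15a are highest on average in HPC, and Ddit3 has the smallest relative difference of the 8.

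Between the phases few of these genes passed the test. In median LP against early LP, 1 of the 33 genes was called higher and none lower, where 1.48% of all genes tested were called higher and 0.997% lower. The 1 gene was Atf5, with a log2 difference of 0.45 (SE 0.08) and an adjusted p of 0.0111 in edgeR. Its call was lost without early LP 2, without median LP 1 and without median LP 2 (adjusted p = 0.0600, 0.0521 and 0.0527). At an unadjusted p under 0.05, 2 of the 33 genes were higher and 3 lower in median LP, and DESeq2 called 2 higher and 2 lower. The 32 genes that were not called had 95% intervals within -1.17 and 0.72 on the log2 scale, which leaves room for differences up to those bounds. The largest of these uncalled differences was -0.73 (SE 0.20) for Ppp1r15a, followed by 0.31 (SE 0.09) for Xbp1, 0.30 (SE 0.19) for Trib3 and -0.29 (SE 0.08) for Herpud1. Of these, 3 passed the threshold when 1 library was left out, Ppp1r15a without HPC 2, Xbp1 without HPC 3 and Herpud1 without median LP 3 (adjusted p = 0.0425, 0.0427 and 0.0415).

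On the FPKM scale, Calr, Hspa5 and P4hb had the highest means of the 33 genes in each group. Calr stood at 2050 ± 157 FPKM in early LP and 1907 ± 146 FPKM in median LP, against 747 ± 26.2 FPKM in HPC (SD, n = 3 each). Hspa5 stood at 1032 ± 55.3 FPKM in early LP and 903 ± 40.4 FPKM in median LP, against 337 ± 26.9 FPKM in HPC, and P4hb at 806 ± 43.8 FPKM in early LP and 748 ± 60.5 FPKM in median LP, against 296 ± 7.16 FPKM in HPC. In early LP these 3 neighbours differed beyond their spread, and P4hb and Sec61b in HPC did not, at 296 ± 7.16 and 295 ± 17.7 FPKM. The sensors Atf6 and Eif2ak3 were near the low end, with 9.75 ± 0.337 FPKM in early LP and 9.47 ± 0.222 FPKM in median LP, against 7.28 ± 0.501 FPKM in HPC for Atf6. Eif2ak3 stood at 12.2 ± 0.310 FPKM in early LP and 11.5 ± 0.253 FPKM in median LP, against 7.26 ± 0.185 FPKM in HPC. Spread within a group was small for most genes, with a median coefficient of variation over the 33 genes of 3.78% in early LP and 4.63% in median LP, against 9.98% in HPC. HPC 3 was the lowest HPC library for 22 of the 33 genes and the highest for 7. It also stood apart in a score of long against short transcripts, at 0.662 against 0.928 to 1.19 in the other 8 libraries. Without HPC 3, 31 of the 33 genes were called higher in each comparison with HPC.

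Median changes were close with and without the promoter element, and no test was run on that. The 9 genes with an exact ERSE all rose, by a median log2 of 1.27 in early LP and 1.23 in median LP. Of the 18 genes with a promoter in the table and neither ERSE nor ERSE-II, 16 rose in each comparison, with medians of 1.28 in early LP and 1.23 in median LP. The ERSE genes included the smallest and the largest of the 31 rises, with Canx at 0.26 and Derl3 at 6.04 in early LP.

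Other genes of the same pathways also stood higher, though less uniformly. These were taken from 6 lists drawn up by function, with earlier results of these data known. Of their 133 tested genes, 85 rose and 18 fell in early LP, and 83 rose and 20 fell in median LP, with a median log2 of 0.38 in both. The shares over all genes tested were 35.3% higher and 37.9% lower in early LP, and 36.0% higher and 37.7% lower in median LP. In median LP against early LP, 1 of the 133 was lower and none higher, where 0.997% of all genes tested were lower and 1.48% higher. The oligosaccharyltransferase, which attaches glycans to new proteins, had all of its 11 subunit genes higher in both phases (median log2 0.66 in early LP and 0.47 in median LP). Of its most abundant members, Rpn2 had 855 ± 13.7 CPM in early LP and 740.3 ± 20.8 CPM in median LP, against 506 ± 21.6 CPM in HPC (SD, n = 3 each). Ddost had 659.6 ± 39.8 CPM in early LP and 535 ± 9.40 CPM in median LP, against 394 ± 27.5 CPM in HPC, and Rpn1 had 476 ± 27.9 CPM in early LP and 429.8 ± 23.3 CPM in median LP, against 369 ± 2.94 CPM in HPC. Protein translocation and signal peptidase genes rose in 19 of 23 cases in each phase, with 1 lower in early LP and none in median LP. Ssr1, a subunit of the translocon-associated complex, rose by 0.97 (SE 0.07) in early LP and 0.87 (SE 0.07) in median LP. Ssr3 of the same complex rose by 0.64 (SE 0.07) in early LP and 0.53 (SE 0.07) in median LP, and the signal peptidase subunit Spcs3 by 1.19 (SE 0.08) in early LP and 1.09 (SE 0.08) in median LP on the log2 scale.

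Of 28 further ER folding genes, 18 rose and 4 fell in early LP, and 17 rose and 4 fell in median LP. Ero1l, the oxidase that recharges PDI, had 503 ± 19.2 CPM in early LP and 575 ± 34.4 CPM in median LP, against 155 ± 32.2 CPM in HPC. Its log2 rise was 1.69 (SE 0.13) in early LP and 1.89 (SE 0.13) in median LP. Uggt1, the glucosyltransferase that senses folding of glycoproteins, rose by 0.97 (SE 0.09) in early LP and 0.91 (SE 0.09) in median LP, and the prolyl isomerase gene Ppib by 0.82 (SE 0.07) in early LP and 0.67 (SE 0.07) in median LP. Among 25 further degradation genes, 15 rose and 3 fell in early LP, and 12 rose and 5 fell in median LP. For both lists, the share called higher over all genes tested was 35.3% in early LP and 36.0% in median LP. Edem2, a relative of Edem1, had 357 ± 25.9 CPM in early LP and 323 ± 9.39 CPM in median LP, against 106 ± 2.50 CPM in HPC. It rose by 1.76 (SE 0.07) in early LP and 1.61 (SE 0.07) in median LP. Os9, a lectin of the Hrd1 complex, rose by 0.59 (SE 0.07) in early LP and 0.40 (SE 0.07) in median LP. The ATPase gene Vcp, which has many roles outside the ER, changed by 0.19 (SE 0.06) in early LP and 0.07 (SE 0.06) in median LP, which passed the threshold in early LP alone (adjusted p = 0.0133 and, in median LP, 0.298).

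Of 24 further targets of Atf4, 14 rose and 2 fell in early LP, and 17 rose and 2 fell in median LP. The amino acid transporter gene Slc7a5 rose by 0.57 (SE 0.06) in early LP and 0.60 (SE 0.06) in median LP. Shmt2, a mitochondrial enzyme of serine metabolism, had a log2 change of 0.19 (SE 0.09) in early LP and 0.14 (SE 0.09) in median LP. Xpot, a tRNA exporter, had one of -0.04 (SE 0.08) in early LP and 0.01 (SE 0.08) in median LP, and neither gene was called. The 22 other sensors and regulators showed no majority, with 8 higher and 8 lower in early LP and 7 higher and 9 lower in median LP. Over all genes, 35.3% were higher and 37.9% lower in early LP, and 36.0% higher and 37.7% lower in median LP. Ppp1r15b, the constitutive counterpart of Ppp1r15a, had 288 ± 11.9 CPM in early LP and 353 ± 11.5 CPM in median LP, against 179 ± 18.1 CPM in HPC. It rose by 0.69 (SE 0.08) in early LP and 0.98 (SE 0.08) in median LP, in the opposite direction to Ppp1r15a. Tmbim6, a Bax inhibitor of the ER membrane that restrains IRE1, rose by 1.30 (SE 0.08) in early LP and 1.08 (SE 0.08) in median LP. Eif2s1, which encodes eIF2alpha, fell to 160 ± 13.1 CPM in early LP and 176 ± 7.45 CPM in median LP, against 212 ± 1.32 CPM in HPC.

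**Figure D5:**
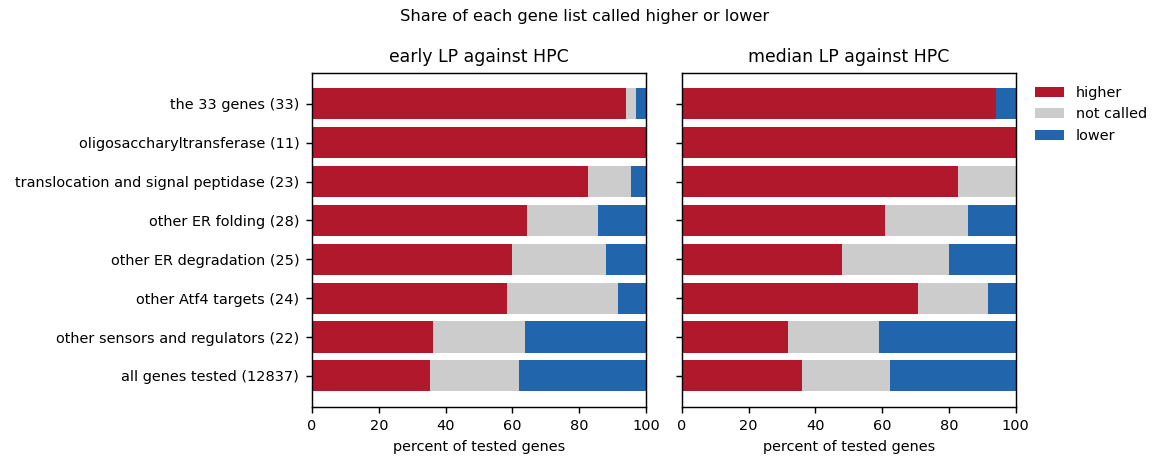
Percent of tested genes called higher, not called and called lower in each LP phase against HPC (left, early LP), for the 33 genes, the 6 pathway lists and all 12837 genes tested; the number of tested genes of each list is in parentheses. The 33 genes and the oligosaccharyltransferase list are almost wholly higher, while the other sensors and regulators resemble all genes.

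Marker mRNAs of several cell types also differed between LP and HPC. Summed levels of 6 promyelocyte granule genes (Mpo, Elane, Prtn3, Ctsg, Cst7 and Ms4a3) were 34920 to 39900 CPM in early LP and 28680 to 30700 CPM in median LP, against 13180 to 14840 CPM in HPC. Mpo was the largest part, with a mean of 21890 CPM in early LP. Prtn3 was not called in either phase, at a log2 change of 0.17 in early LP and -0.20 in median LP. Erythroid genes summed to 6.84 to 9.45 CPM in early LP and 7.96 to 9.76 CPM in median LP, against 1612 to 1675 CPM in HPC. Stem and progenitor genes summed to 258 to 260 CPM in early LP and 241 to 257 CPM in median LP. Their sum in HPC was 885 to 973 CPM. Kit made up most of the LP sums, with means of 250.9 CPM in early LP and 246.9 CPM in median LP. Its HPC mean was 436.8 CPM. Cd34, Flt3, Eng and Meis1 fell far more, by log2 changes of -5.84 to -7.51 in early LP and -6.41 to -7.98 in median LP. Ly6a went the other way, called higher in early LP (log2 0.71) and not called in median LP (0.35). Plasma cells are bone marrow cells with a very active unfolded protein response. Levels of 7 of their marker genes summed to 3.21 to 3.83 CPM in early LP and 2.99 to 4.09 CPM in median LP, against 5.82 to 6.63 CPM in HPC. Sdc1 made up most of the HPC sum, and without it the other 6 summed to 3.12 to 3.74 CPM in early LP and 2.72 to 3.96 CPM in median LP, against 1.21 to 1.47 CPM in HPC. Of these, Igj, the antibody joining chain, rose by a log2 of 2.71 in early LP and 2.07 in median LP. Pou2af1, a coactivator of B-lineage genes, fell by 3.44 (SE 0.79) in early LP and rose by 1.43 (SE 0.38) in median LP. Its means were close to 0, at 0.0139 CPM in early LP and 0.560 CPM in median LP, against 0.205 CPM in HPC. Only 3 of the 7 plasma cell genes passed the filter and were tested. Of the 6 without Sdc1, 3 were at 0 in at least 1 library of early LP and 2 in at least 1 of median LP, against 1 in HPC. The part of any of these cell types in the rise of the 33 genes was not tested. Genes on chromosomes 8 and 15 stood higher as a whole in early LP (median log2 0.53 on each, against -0.09 for genes elsewhere) and in median LP (0.51 on each, against -0.08), which touches Calr and Herpud1 on chromosome 8 and Atf4, Creld2 and Derl1 on chromosome 15. The other 28 genes lie elsewhere, and the part of this shift in the rise of the 33 genes was not tested. Libraries of 1 group correlated at 0.990 to 0.995 across genes, LP libraries of different phases at 0.986 to 0.990, and LP with HPC libraries at 0.776 to 0.806. Depth ran between 20.6 and 28.4 M recovered fragments.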

How the data were processed

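RNA from sorted bone marrow cells was sequenced in 9 libraries, and reads were aligned with TopHat2 2.0.6 to mm10, per the submitters' processing notes. The quantification program is not given in the sources used here. The authors deposited FPKM and estimated counts per RefSeq transcript. The deposited estimated counts were summed per gene and rounded to whole numbers, and tested with edgeR 4.0.16 in R 4.3.3 (quasi-likelihood, TMM, filterByExpr, all 9 libraries in 1 fit, two-sided). The filter kept 12837 genes and left out 3700, and all 33 genes passed. The common biological coefficient of variation was 9.81%. Deposited totals were 21.9 to 25.8 M counts per library. Low counts were multiples of 1 step per library, and 89.7 to 91.3% of values up to 50 steps became whole within 0.05 after division by it, which gave the recovered fragments.

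The 33 genes and the lists were chosen with earlier results of these data known. Per-library values were given for genes called in both comparisons with HPC with an absolute log2 change of at least 1 in either, for those called between the phases and for the 4 sensors and regulators. Ppp1r15a was added after its values were seen. Pathway genes named are the 3 of highest mean CPM per list. Alternatives used DESeq2 1.42.0, limma 3.58.1, other scalings, filters and units, and each library left out. Scripts were tested on simulated data. Protein sequences were not analysed here.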

Additional observations from a re-analysis of the deposited data

Results flagged for a closer look

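Atf5 was the 1 gene of the 33 whose effect differed between the phases by a test of the difference itself, at a log2 difference of 0.45 (SE 0.08) in median LP against early LP with an adjusted p of 0.0111 in edgeR. The call was lost under limma on log2(FPKM + 0.1) and log2(FPKM + 1) (adjusted p = 0.0773 and 0.0632) and without early LP 2, median LP 1 or median LP 2 (adjusted p = 0.0600, 0.0521 and 0.0527 in edgeR), and DESeq2 called 3 more of the 33 genes, Herpud1, Xbp1 and Ppp1r15a (adjusted p = 0.0321, 0.0413 and 0.0107). All 3 median LP libraries, with 69.5, 64.5 and 62.0 CPM, were above all 3 early LP libraries, with 46.4, 48.0 and 48.9 CPM. Its locus is shared with Nup62, Il4i1, Nup62-il4i1 and Tbc1d17 in the table, and the part of those reads in the difference was not tested.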

How the results depend on the processing

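Across 21 alternatives, 30 of the 33 genes kept their call and direction in early LP against HPC and 32 of the 33 did so in median LP against HPC. The exceptions in early LP were Ppp1r15a, Ddit3 and Canx, and the exception in median LP was Canx, with adjusted p of 0.0539 under upper quartile scaling and of 0.0782 and 0.0815 under limma on log2(FPKM + 0.1) and log2(FPKM + 1). Ddit3 also lost its early call under upper quartile scaling (adjusted p = 0.102 in edgeR). The number of the 33 genes called lower in early LP was 2 under upper quartile scaling, under DESeq2 and with the long-transcript score as covariate, and 1 to 2 with a library left out. The cause was not tested. In median LP against early LP, calls over all genes were 190 higher and 128 lower. They were 313 and 245 under DESeq2, 362 and 243 with only the 2 groups compared, and 385 and 276 with the long-transcript score as covariate. Higher calls were 86 under limma on log2(FPKM + 0.1), and limma on log2(FPKM + 1) gave 97 higher and 81 lower. Lower calls were 75 with the most abundant transcript per gene. With a library left out they ran from 66 to 391 higher and 39 to 296 lower. Of the 33 genes, 2 were higher and 2 lower under DESeq2, 0 higher under both limma fits and 1 lower with only the 2 groups compared, and with a library left out 0 to 2 were higher and 0 to 1 lower. For 17 of the 33 genes this difference was within its SE, and it was not followed. The replicate block gave 62 lower calls between the phases over all genes. Deviations from the group mean correlated at -0.213 to 0.115 between same-numbered libraries of different groups, and at -0.218 to 0.218 between those with different numbers. The numbers thus gave no sign of pairing, which does not settle whether libraries were paired. Intervals cover the spread between libraries, with 3 per group. Trib3, Chac1 and Derl3 in HPC rest on few fragments, so the size of their fold changes is less certain and depends on the units used. The Xbp1 shares differed by under 1 percentage point between estimated counts and FPKM.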

Other observations

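Promoters with an exact ERSE or ERSE-II also stand before genes outside the 33, and these were looked up after the motif counts were known. Of 10 tested genes with an ERSE, 4 rose in each comparison with HPC and 3 fell. The 4 that rose in early LP were Acacb, an acetyl-CoA carboxylase (log2 0.86), Adcy3, an adenylate cyclase (3.85), Alg12, a mannosyltransferase of the ER that builds the glycan for protein glycosylation (1.31), and Tdrd9, a germline helicase (7.45). The 3 that fell were Xlr3b (-5.74), Xlr3c (-3.23) and Zfp57, a zinc finger factor of imprinted loci (-3.66), and the Xlr3 genes are near-identical copies whose reads could be split between them. Of 6 tested genes with an ERSE-II, 3 rose and 1 fell in each comparison. The 3 that rose in early LP were Krtcap2, an oligosaccharyltransferase subunit (1.27), Lrif1, a nuclear receptor interacting factor (0.70), and Nucb1, a calcium-binding protein of the Golgi (1.59), and the 1 that fell was Rcl1, a factor of ribosome assembly (-0.67). Over all genes tested, 35.3% were called higher and 37.9% lower in early LP.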
